A study of Mus musculus with 10 samples.

Results

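Adventitial fibroblasts and the matrix proteins they and other cells of the vessel wall secrete were examined in the aorta of male mice, wild type or mutant for Npas2, a transcription factor of the circadian clock. The list held 42 genes, fixed by symbol. Each was read on the probe set of that symbol with the highest mean over all 10 Affymetrix MOE 430V2 arrays, a probe set being the group of probes that reports 1 transcript. In all, 40 of the 42 had such a probe set, out of 10945 genes tested. Ly6a and Spp1 had none under their symbol in the annotation used and were not analysed here. The 40 genes had been listed by function, but with earlier results of these data known, so no count over the list is independent evidence.

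Each group held 5 arrays of aortic RNA. Per the labels, wild-type mice were of strain C57Bl/6 and mutants were on a C57Bl/6J background. The strain is thus named differently in each group, and an effect of background cannot be told apart from one of the mutation. What the Npas2 mutation does to the gene is not stated in those labels, nor is the age of the mice. The mice had lived for 2 weeks or more in a daily cycle with 12 h of light and 12 h of dark. They then spent 30 h or more without light, the aorta was taken at zeitgeber time 14 h, and the vessels were rinsed by perfusion. Nothing in the labels ties each array to a separate mouse, so p values measure only the spread between these arrays. The comparison asked which transcripts differ between mutant and wild-type aorta.

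The adventitia is the outer coat of an artery. Its fibroblasts carry Pdgfra and secrete collagen-binding proteoglycans such as decorin and lumican. Matricellular proteins (thrombospondins, tenascins, periostin, SPARC) are secreted into the matrix, where they change how cells attach and respond to growth factors more than they bear load. Metalloproteinases cut the matrix, TIMPs restrain them, and procollagen C-proteinase enhancers speed the trimming of collagen precursors.

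Levels are the deposited log2 values, where a step of 1 is a doubling, and differences are mutant minus wild type. All 40 genes lay above their own array's median on every array, and 35 of them above its 75th percentile on every array. Hence all 40 passed the filter on dim probe sets. The deposited arrays had similar scales, with medians between 3.14 and 3.20 and upper quartiles between 5.40 and 5.55. With 5 arrays per group, their number sets the precision. All 9 smooth muscle markers, Myh11 among them, were above the array median on every array. Of 10 cartilage markers 3 were, and Col2a1 was above it on no array. In whole tissue, fewer cells of a type and less RNA per cell cannot be told apart.

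Among the 40 genes, Lrrc17 was lower in the mutant and passed the test, and the others did not pass it. Lrrc17, a secreted leucine-rich repeat protein, was 1.37-fold lower in the mutant. Its call depended on the processing: it passed in 9 of 24 alternative analyses and fell short of the threshold in 15. The fibroblast markers Pdgfra, Dcn, Lum and Dpt had differences between 0.018 and 0.045. Other fibroblast markers had 0.033 (Gsn), -0.098 (Serpinf1), 0.15 (Clec3b), 0.22 (Pi16) and 0.29 (Cd34). For Pdgfra, Dcn, Lum and Dpt the differences lay between 0.28 and 0.42 in a fit with the mean of brown fat markers as a covariate. In that fit 0 of the 40 genes passed, and 0 of all probe sets. Lower mean levels without passing the test were seen for the proteoglycan gene Fmod, the inhibitor gene Timp3, the collagen-processing gene Pcolce2 and the thrombospondin gene Thbs2. Higher means without passing were seen for the matrix protein gene Cilp and for Thy1, Cd34 and Mmp2.

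By limma, with p values adjusted by Benjamini-Hochberg across the 22340 probe sets tested, 1 of 40 genes passed an adjusted p of 0.05, where 0.215% of all probe sets did and 0.121% did as lower in the mutant. At an unadjusted p of 0.05 there were 14 of 40, or 35%, beside 15.3% of all probe sets. Of these 14, 10 were lower, where 10.6% of all probe sets were, and 4 higher, where 4.75% were. The mutant and wild-type arrays did not overlap for 5 of the 40 genes, Lrrc17, Fmod, Timp3, Cd34 and Mmp2, against 4.01% of all probe sets. The first 3 of these were lower (2.5% of all probe sets) and the other 2 higher (1.5%). The median difference was -0.061 over the 40 genes and -0.028 over all tested probe sets, and 24 of the 40 (60%) had a lower mean, against 57.6% of all probe sets. The same shares of all probe sets stand beside the counts by role and by marker list below. A stricter filter at the 75th percentile kept 35 of the 40 genes and 11283 probe sets. In that fit 11 of 35 genes had an unadjusted limma p under 0.05, beside 20.9% of the probe sets. There 5 genes did not overlap, beside 5.50%, and the median differences were -0.076 and -0.047. No test of the list itself was made.

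**Figure D1:**
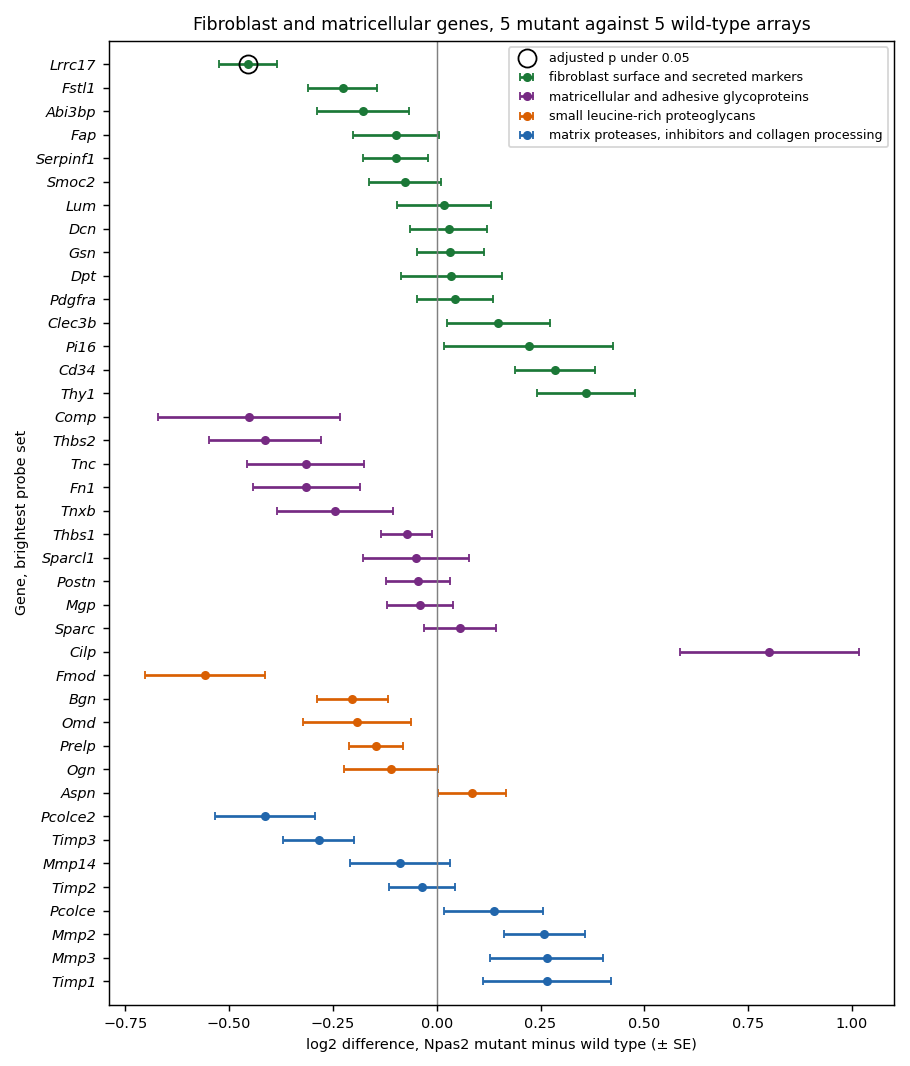
Log2 difference, mutant minus wild type (x axis, points with standard errors of the limma fit), for each of the 40 genes (y axis), coloured by role, 5 arrays per group. Lrrc17, at -0.45, is circled as the 1 gene past an adjusted p of 0.05, while Dcn, Lum, Dpt, Gsn and Pdgfra sit near 0.

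The arrays did not contribute alike. Wild type F14_2 was the lowest array of its group for 26 of the 40 genes, and mutant F12 the lowest of its group for 29, with mutant F13 the lowest for another 9. The mean deviation from the gene means over the 40 genes was -0.16 on F14_2, -0.18 on F12 and -0.15 on F13, and between 0.028 and 0.096 on the other 7 arrays. Without F14_2 and F12 together, an alternative added after the data were seen, 0 of the 40 genes passed by limma, and Lrrc17 had an adjusted p of 0.108 with a difference of -0.48. In that fit 13 genes had an unadjusted p under 0.05, 8 lower and 5 higher, beside 14.7% of all probe sets, and 7 did not overlap between the groups, beside 8.88%. Leaving out F12 alone brought the median difference of the 40 genes to -0.0092.

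**Figure D2:**
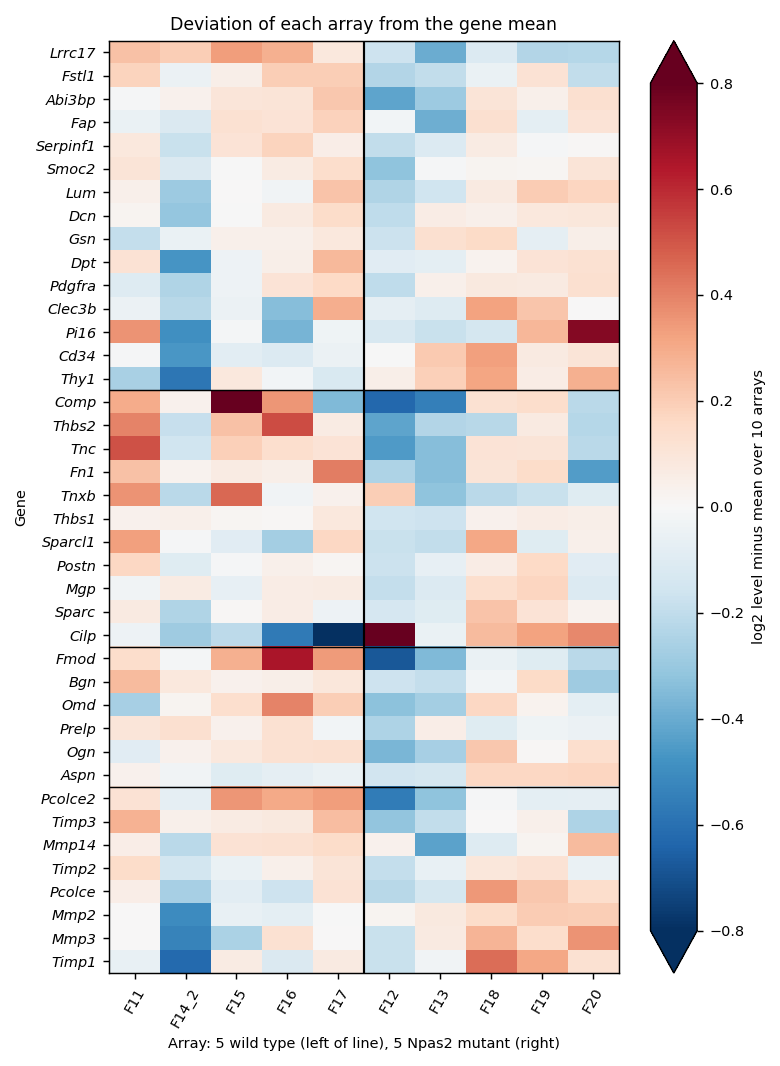
Each cell is 1 gene (rows, grouped by role and ordered by difference) on 1 array (columns, wild type left of the vertical line), coloured by its log2 level minus the gene's mean over the 10 arrays, with the scale ending at 0.8 either way. Columns F14_2, F12 and F13 are blue for most genes, with mean deviations of -0.16, -0.18 and -0.15.

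Markers of brown fat and of skeletal muscle were measured in the same samples. The mean log2 level of 9 measured brown fat markers ran from 8.14 to 8.71 in wild type and from 8.93 to 9.48 in the mutant, without overlap, and it was highest on F12 and F13. It was lowest, among the mutants, on F18, the mutant array with the highest mean deviation of the 40 genes (0.096). The wild-type arrays did not all follow that order. F11 had the highest brown fat mean of its group (8.71) and the highest mean deviation (0.089). F14_2, with the lowest deviation, had a brown fat mean of 8.62. Wild type F17, with the lowest brown fat mean (8.14), had a high mean deviation (0.079), as in the mutant order. With the brown fat mean as a covariate the median difference of the 40 genes was 0.20 in place of -0.061. In that fit 29 of them were higher in the mutant, and Lrrc17 had a difference of -0.51 ± 0.14 (SE, limma adjusted p = 0.561). Over all probe sets the median there was -0.017. An unadjusted limma p under 0.05 was seen for 8 of the 40 genes, 1 lower and 7 higher, beside 7.21% of all probe sets. Since the brown fat mean separates the groups by itself, the genotype and the brown fat signal cannot be told apart here. The mean of 12 skeletal muscle markers ranged from 3.55 to 9.90 in wild type and from 3.59 to 11 in the mutant, and the groups overlapped. All 12 nevertheless had a higher mean in the mutant. Averaged over the arrays of each group, the list mean was 5.81 in wild type and 7.46 in the mutant, a difference of 1.65. No brown fat or skeletal muscle marker passed the test by limma, with 6 of 9 and 0 of 12 at an unadjusted p of 0.05. Of the vessel wall's own muscle, 8 of 9 smooth muscle markers had a lower mean in the mutant, with list means of 10.84 to 11.14 in wild type and 10.69 to 10.998 in the mutant and 0 past the limma test (4 at an unadjusted p of 0.05). All 10 macrophage markers had a higher mean in the mutant (5 at an unadjusted p of 0.05), with list means of 6.99 to 7.26 in wild type and 7.15 to 7.61 in the mutant. Of 8 adipocyte markers 7 had a higher mean (3 at an unadjusted p of 0.05), with list means of 10.55 to 10.86 and 10.55 to 10.99. Both lists overlapped between the groups and 0 of their markers passed by limma. The part of these cells and tissues in the differences below was not tested beyond these fits.

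**Figure D3:**
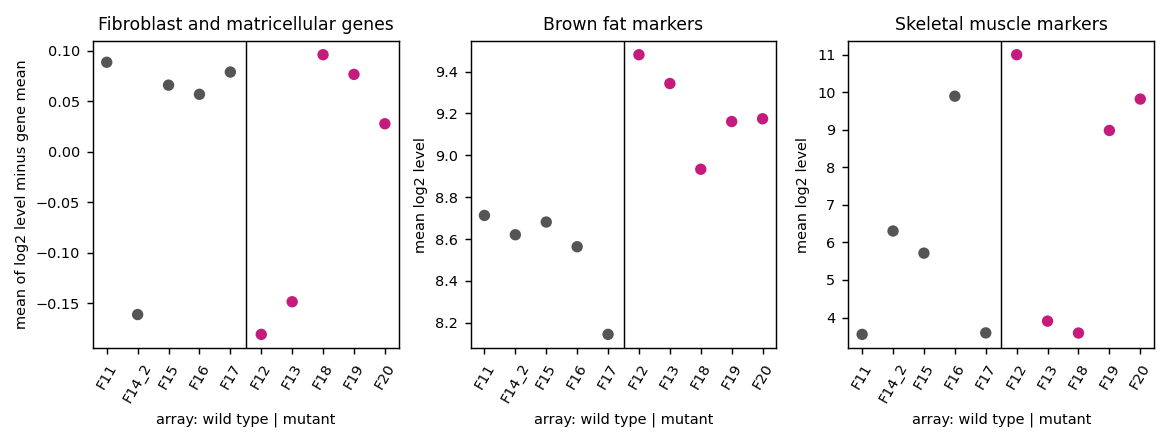
Mean over the 40 genes of the log2 level minus the gene mean (left), mean log2 level of 9 brown fat markers (middle) and of 12 skeletal muscle markers (right) on each array, wild type in grey and mutant in magenta. The brown fat means of the mutant arrays (8.93 to 9.48) all lie above those of the wild-type arrays (8.14 to 8.71), while the other panels overlap.

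Surface and secreted markers of fibroblasts came first. Lrrc17 (probe set 1429679_at) had log2 levels of 8.39, 8.36, 8.50, 8.44 and 8.24 on wild type F11, F14_2, F15, F16 and F17. On mutant F12, F13, F18, F19 and F20 it had 7.99, 7.77, 8.05, 7.92 and 7.93, and the arrays are given in this order throughout. Every mutant array was below every wild-type array, with means of 8.39 ± 0.10 and 7.93 ± 0.11 (SD, n = 5 each). Lrrc17 fell by 0.45 (SE 0.07), with a limma adjusted p of 0.0327. It passed in 1 of the 10 fits that left out an array, that without F18. Over the 10 fits the difference lay between -0.49 and -0.41 and the adjusted p between 0.0499 and 0.0892. With the mean of both its probe sets the difference was -0.21 (adjusted p = 0.120). The other Lrrc17 probe set, 1454076_at, was too dim to be tested, at 2.90 in wild type and 2.93 in the mutant.

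Cd34, a sialomucin of fibroblasts, progenitors and endothelial cells, was higher on all mutant arrays than on any wild-type array. Its wild-type levels were 9.18, 8.72, 9.10, 9.08 and 9.14, and its mutant levels 9.18, 9.39, 9.51, 9.26 and 9.29, F12 only just clearing F11. The difference was 0.29 ± 0.10 (SE, limma adjusted p = 0.208), 0.21 without F14_2, which stands lowest, and 0.48 ± 0.19 (SE) with the brown fat covariate. After centring each array on its median, and after quantile normalisation, the Cd34 groups overlapped. After quantile normalisation 5 of the 40 genes had no overlap, beside 3.78% of all probe sets, with Thy1 and Cilp in place of Cd34 and Timp3. Endothelial markers as a list overlapped between the groups, from 5.96 to 6.21 in wild type and from 6.04 to 6.29 in the mutant.

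Thy1, a surface glycoprotein of fibroblasts and nerve cells, stood at 4.94, 4.62, 5.29, 5.18 and 5.08 in wild type and at 5.25, 5.40, 5.52, 5.26 and 5.49 in the mutant. Only wild type F15 reached into the mutant range. The difference of 0.36 ± 0.12 (SE) came with a limma adjusted p of 0.200. Fstl1, a secreted follistatin-like glycoprotein, had 11.95, 11.72, 11.82, 11.96 and 11.97 in wild type and 11.54, 11.57, 11.72, 11.89 and 11.57 in the mutant. Mutant F19 alone lay well inside the wild-type range. Its difference was -0.23 ± 0.08 (SE, limma adjusted p = 0.236), and a second probe set had -0.24. With the brown fat covariate it was -0.031 ± 0.155 (SE).

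The remaining fibroblast markers overlapped fully or nearly so. Dcn, the collagen-binding proteoglycan decorin, was 12.49 ± 0.18 in wild type and 12.51 ± 0.12 in the mutant (SD, n = 5 each), and Lum, its relative lumican, 10.04 ± 0.19 and 10.05 ± 0.20. Pdgfra, the receptor that marks mesenchymal fibroblasts, was 8.86 ± 0.16 and 8.91 ± 0.13, and Dpt, which encodes dermatopontin, 10.88 ± 0.28 and 10.91 ± 0.10. The limma adjusted p ran from 0.832 (Pdgfra) to 0.952 (Lum) over these 4 genes. With the brown fat covariate the differences were 0.28 ± 0.17 for Dcn, 0.42 ± 0.18 for Lum, 0.37 ± 0.15 for Pdgfra and 0.35 ± 0.22 for Dpt (SE). Of these, Lum and Pdgfra had an unadjusted limma p under 0.05, as did 7.21% of all probe sets in that fit. Pi16, a marker of adventitial fibroblasts, spread widely in both groups, from 8.70 to 9.55 and from 9.01 to 9.93, with the highest value on mutant F20. Its difference of 0.22 ± 0.20 (SE, adjusted p = 0.606) was opposite in sign to that of its second tested probe set (-0.049).

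Gsn, the actin-severing protein gelsolin, had a difference of 0.033 ± 0.081 (SE) and Clec3b, the plasminogen-binding protein tetranectin, one of 0.15 ± 0.12. Clec3b had 0.66 ± 0.18 (SE, limma adjusted p = 0.553) when the brown fat covariate was fitted. Abi3bp, a matrix protein, had -0.18 ± 0.11, with F12 and F13 (8.68 and 8.81) below every wild-type array and the other 3 mutant arrays inside the wild-type range. Serpinf1, the antiangiogenic factor PEDF, had -0.098 ± 0.078, Fap, a fibroblast surface protease, -0.099 ± 0.104, and Smoc2, a SPARC-related matricellular protein, -0.076 ± 0.086. In this role 6 of 15 genes had a lower and 9 a higher mean (7 and 8 after median centring), with a median difference of 0.029. With the brown fat covariate 2 were lower and 13 higher, with a median of 0.28 and 5 at an unadjusted p of 0.05. Over all probe sets in that fit the median was -0.017, and 7.21% had an unadjusted limma p under 0.05.

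**Figure D4:**
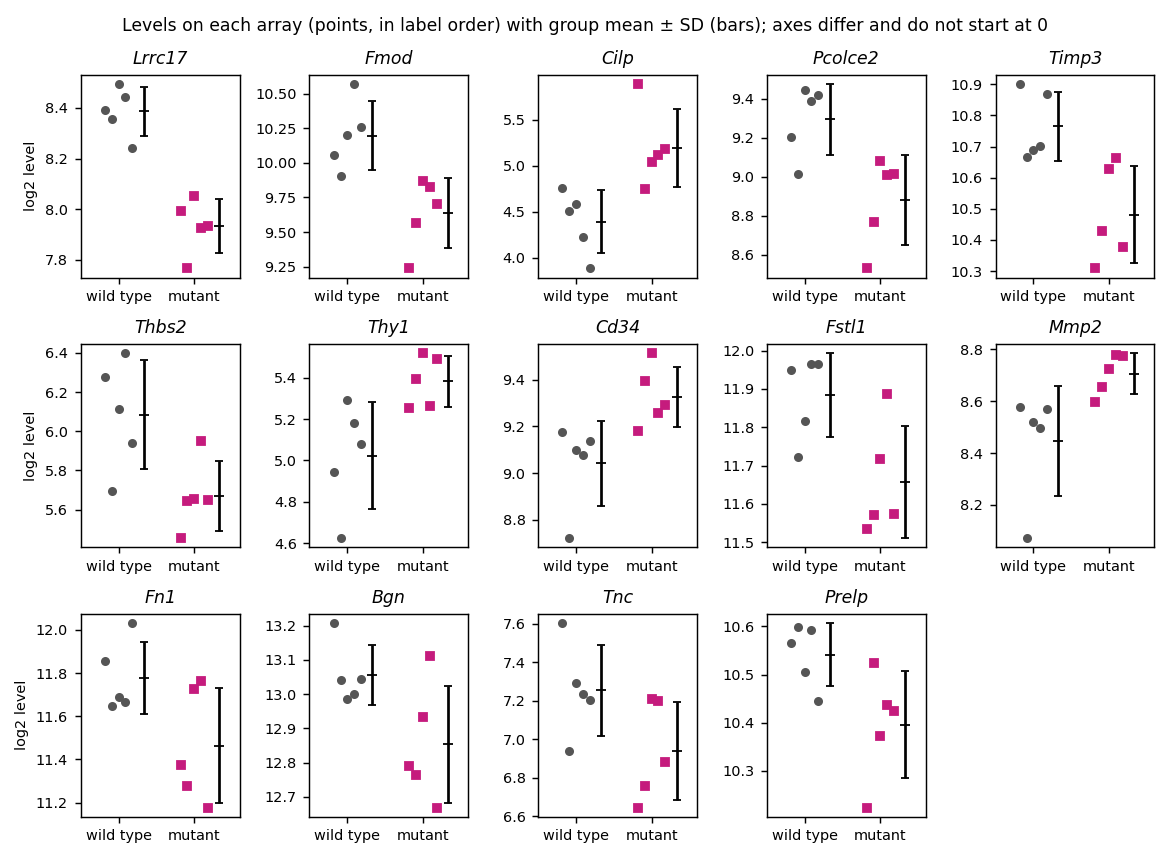
Log2 level (y axis, a separate range for each panel, not starting at 0) on every array for the 14 genes with an unadjusted limma p under 0.05, ordered by that p; grey circles are wild type, magenta squares mutant, bars mean ± SD. The Lrrc17, Fmod, Timp3, Cd34 and Mmp2 panels show no overlap of the groups, and in the Mmp2 panel wild type F14_2 (8.07) lies far below the other 4.

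Small leucine-rich proteoglycans bind collagen fibrils and set their diameter and spacing. Fmod, which encodes fibromodulin, had 10.06, 9.90, 10.20, 10.57 and 10.26 in wild type and 9.24, 9.56, 9.87, 9.82 and 9.70 in the mutant. No mutant array reached the lowest wild-type one, although mutant F18 lay just under wild type F14_2. The means were 10.20 ± 0.25 and 9.64 ± 0.25 (SD, n = 5 each), and the difference of -0.56 ± 0.14 (SE) came with a limma adjusted p of 0.130. All 6 Fmod probe sets were tested and all 6 had a lower mean in the mutant, with differences from -0.78 to -0.26 and adjusted p from 0.122 to 0.273. The brightest carries the suffix _x_at, which marks probes that may match other transcripts. Probe set 1415939_at, without that suffix, had -0.44 ± 0.11 (SE, adjusted p = 0.122), also without overlap. With the brown fat covariate the Fmod difference was -0.11 ± 0.25 (SE).

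Bgn, the biglycan gene, had 13.21, 13.04, 12.99, 12.9997 and 13.04 in wild type and 12.79, 12.76, 12.93, 13.11 and 12.67 in the mutant. Mutant F19 was above 4 wild-type arrays while the other 4 mutants were below all of them. The difference was -0.20 ± 0.09 (SE, limma adjusted p = 0.294), and its other 2 probe sets were lower as well, the smallest at -0.14. Prelp, a heparin-binding member of the family, had 10.57, 10.60, 10.51, 10.59 and 10.44 against 10.22, 10.52, 10.37, 10.44 and 10.42. Its difference of -0.15 ± 0.07 (SE, adjusted p = 0.323) shrank to -0.088 without F14_2 and F12. Omd, the osteomodulin gene, had -0.19 ± 0.13 and Ogn, the osteoglycin gene, -0.11 ± 0.11. Aspn, the asporin gene, had 0.085 ± 0.081. Thus 5 of 6 had a lower and 1 a higher mean, a split that was the same after quantile normalisation and median centring, but 3 and 3 with the brown fat covariate, and 0 passed by limma (3 at an unadjusted p of 0.05).

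Matricellular and adhesive glycoproteins had a lower mean in the mutant for 9 of 11 genes (8 of 11 after quantile normalisation, but 5 lower and 6 higher with the brown fat covariate), and 0 passed by limma, with 4 at an unadjusted p of 0.05. Thbs2, the thrombospondin that restrains angiogenesis and collagen fibril growth, had 6.28, 5.69, 6.11, 6.40 and 5.94 in wild type and 5.45, 5.64, 5.65, 5.95 and 5.65 in the mutant. F19, the highest mutant array, lay above wild type F14_2 and just above wild type F17, while the other 4 mutant arrays lay below every wild-type array. The difference was -0.41 ± 0.13 (SE, limma adjusted p = 0.196). All 3 Thbs2 probe sets were lower, between -0.41 and -0.30, with adjusted p from 0.125 to 0.196, and 1450663_at showed no overlap. Thbs1, the thrombospondin that activates latent transforming growth factor beta, had -0.073 ± 0.062.

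Fn1, fibronectin, which links cells to the matrix through integrins, had 11.86, 11.65, 11.69, 11.66 and 12.03 in wild type. Mutant levels were 11.37, 11.28, 11.72, 11.77 and 11.18, so F18 and F19 fell among the wild-type arrays and the other 3 below them. The difference was -0.31 ± 0.13 (SE, limma adjusted p = 0.280) and on a second probe set -0.57 (adjusted p = 0.223). Tnc, the tenascin of remodelling tissue, had 7.61, 6.94, 7.29, 7.23 and 7.21 in wild type and 6.65, 6.76, 7.21, 7.20 and 6.88 in the mutant. Again F18 and F19 overlapped with wild type, and the difference was -0.32 ± 0.14 (SE, adjusted p = 0.320). Both the Fn1 and the Tnc difference were small with the brown fat covariate, at 0.11 ± 0.22 and -0.088 ± 0.283 (SE).

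Cilp, a cartilage intermediate layer protein also made by vascular and cardiac fibroblasts, had the largest difference of the 40 genes. Its levels were 4.76, 4.51, 4.59, 4.23 and 3.88 in wild type and 5.89, 4.74, 5.05, 5.12 and 5.18 in the mutant. Only mutant F13 fell, barely, within the wild-type range, and F12 was well above the rest. The 1.74-fold higher mean, a difference of 0.80 ± 0.21 (SE), came with a limma adjusted p of 0.141 and was 0.63 without F12. With the brown fat covariate it was -0.027 ± 0.327 (SE). Comp, a cartilage and tendon thrombospondin, went the other way, with levels from 5.78 to 6.93 in wild type and from 5.50 to 6.27 in the mutant (-0.45 ± 0.22, adjusted p = 0.351). Cilp and Comp were also among the most variable of the 40 genes, with within-group SDs of 0.39 each against a median of 0.19.

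Sparcl1, Postn, Sparc and Mgp differed by less than their within-group SD, and Tnxb by about as much as its SD of 0.24. Tnxb, the tenascin of elastic connective tissue, had -0.24 ± 0.14 (-0.56 ± 0.27 with the brown fat covariate) and the SPARC relative Sparcl1 had -0.050 ± 0.128. Postn, the collagen cross-linking aid periostin, had -0.045 ± 0.076 and Sparc, a collagen-binding counter-adhesive protein, 0.056 ± 0.087. Mgp, the inhibitor of arterial calcification, was 13.83 ± 0.06 in wild type and 13.79 ± 0.16 in the mutant (SD, n = 5 each), a difference of -0.040 ± 0.079. On F18 and F19 it was above every wild-type array and on the other 3 mutants below every one. The limma adjusted p ran from 0.413 (Tnxb) to 0.871 (Sparcl1) over these 5 genes.

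Among proteases and their inhibitors the members split evenly, 4 lower and 4 higher by their means, with 0 past the limma test and 3 at an unadjusted p of 0.05. With the brown fat covariate 1 was lower and 7 higher, and the median difference was 0.30 in place of 0.051. Timp3, the inhibitor that binds to the matrix itself, had 10.90, 10.67, 10.69, 10.70 and 10.87 in wild type and 10.31, 10.43, 10.63, 10.66 and 10.38 in the mutant. Every mutant array was lower, F18 and F19 by a small margin. The difference was -0.28 ± 0.09 (SE, limma adjusted p = 0.177), and -0.043 ± 0.153 (SE) with the brown fat covariate. All 4 Timp3 probe sets were lower, between -0.32 and -0.22. Probe set 1419089_at came nearest to passing, at -0.32 ± 0.06 (SE, adjusted p = 0.0621), with means of 9.06 ± 0.07 and 8.74 ± 0.08 (SD, n = 5 each) and no overlap. After quantile normalisation the groups of the brightest Timp3 probe set overlapped.

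Timp1, the inducible soluble inhibitor, had a difference in the other direction (0.27 ± 0.15, adjusted p = 0.420), with levels from 4.80 to 5.50 in wild type and from 5.24 to 5.87 in the mutant. The brown fat covariate brought it to 0.76 ± 0.26 (SE). Timp2, an inhibitor that also helps activate pro-MMP2 at the cell surface, had -0.036 ± 0.079, and 4 of its 5 tested probe sets were lower. Mmp2, the gelatinase made by fibroblasts, had 8.58, 8.07, 8.52, 8.50 and 8.57 in wild type and 8.60, 8.66, 8.72, 8.78 and 8.78 in the mutant. All mutants were above all wild types, F12 by a small margin. The difference of 0.26 ± 0.10 (SE, limma adjusted p = 0.251) was 0.16 without F14_2, the outlying low array, and 0.42 ± 0.19 (SE) with the brown fat covariate, and the groups overlapped after median centring. Mmp3, stromelysin, had 0.26 ± 0.14 (adjusted p = 0.372), or 0.64 ± 0.25 when that covariate was fitted, and Mmp14, the membrane protease that activates pro-MMP2, -0.089 ± 0.120.

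Pcolce2 and Pcolce encode enhancers of the protease that removes the carboxyl propeptide of procollagen, and their differences had opposite signs. Pcolce2 had 9.20, 9.01, 9.44, 9.39 and 9.42 in wild type and 8.53, 8.77, 9.08, 9.01 and 9.01 in the mutant. Mutant F18 alone was above the lowest wild-type array, F14_2. The difference was -0.41 ± 0.12 (SE, limma adjusted p = 0.169), and 0.0075 ± 0.1974 (SE) with the brown fat covariate. Pcolce had 0.14 ± 0.12 (adjusted p = 0.583), from 10.88 to 11.26 in wild type and from 10.92 to 11.49 in the mutant. Fitting the brown fat covariate brought Pcolce to 0.60 ± 0.18 (SE, limma adjusted p = 0.578).

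**Figure D5:**
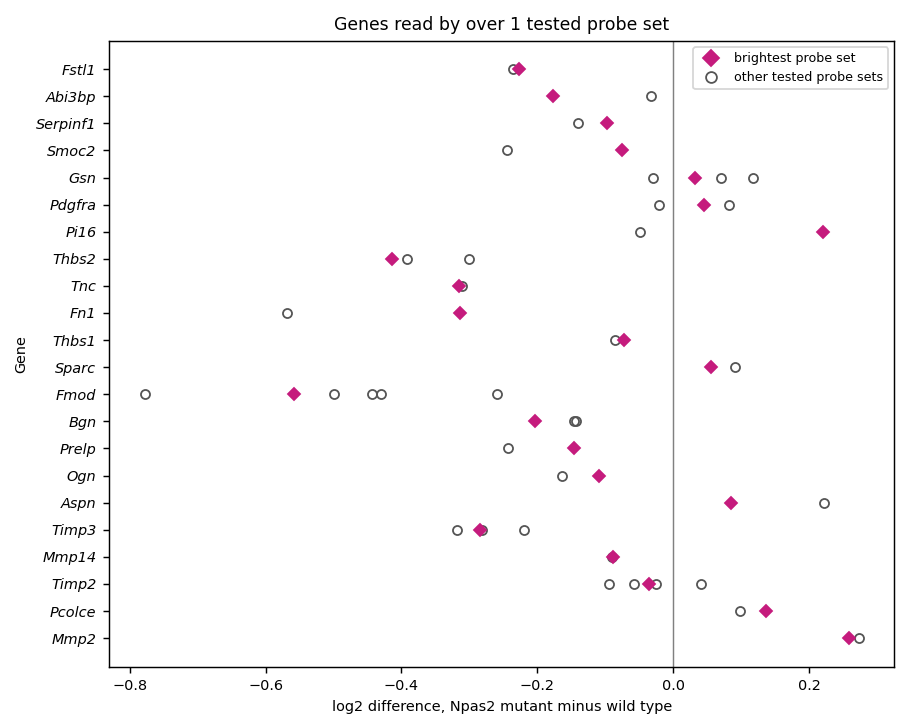
Log2 difference, mutant minus wild type (x axis), of every tested probe set for the 22 genes with over 1 (y axis); filled diamonds are the brightest probe set and open circles the others. All 6 Fmod, all 4 Timp3 and all 3 Thbs2 probe sets lie below 0, while those of Gsn, Pdgfra, Pi16 and Timp2 fall on both sides.

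In all, 83 probe sets read the 40 genes and 76 were tested, of which 1 passed by limma. For 18 of the 22 genes with over 1 tested probe set the differences had a single sign, and for 4 (Gsn, Pdgfra, Pi16 and Timp2) they had both.

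Promoter letters are shown for those non-overlapping genes that RefSeq's GRCm38.p6 table held, because NPAS2 with its partner BMAL1 binds the E-box CACGTG. Each window is the 250 bases before the annotated start, and capitals mark the motif TATAAA where it occurs. The windows are chr5:21543277-21543526, plus strand, for Lrrc17, chr1:134037004-134037253, plus strand, for Fmod, chr10:86300162-86300411, plus strand, for Timp3 and chr1:194938571-194938820, plus strand, for Cd34.
Lrrc17: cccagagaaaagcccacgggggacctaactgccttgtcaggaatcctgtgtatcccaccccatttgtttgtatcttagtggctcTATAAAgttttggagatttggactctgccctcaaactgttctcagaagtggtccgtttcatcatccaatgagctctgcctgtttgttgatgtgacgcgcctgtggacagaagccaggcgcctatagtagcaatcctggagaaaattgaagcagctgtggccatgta
Fmod: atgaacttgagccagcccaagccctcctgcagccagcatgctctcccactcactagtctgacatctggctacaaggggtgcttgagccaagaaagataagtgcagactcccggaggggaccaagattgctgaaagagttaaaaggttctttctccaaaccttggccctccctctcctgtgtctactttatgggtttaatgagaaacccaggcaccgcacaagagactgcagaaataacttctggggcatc
Timp3: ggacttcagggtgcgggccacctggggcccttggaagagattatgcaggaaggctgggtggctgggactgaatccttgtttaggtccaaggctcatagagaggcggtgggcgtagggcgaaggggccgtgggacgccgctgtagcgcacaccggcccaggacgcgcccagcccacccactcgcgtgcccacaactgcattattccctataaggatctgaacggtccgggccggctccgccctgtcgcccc
Cd34: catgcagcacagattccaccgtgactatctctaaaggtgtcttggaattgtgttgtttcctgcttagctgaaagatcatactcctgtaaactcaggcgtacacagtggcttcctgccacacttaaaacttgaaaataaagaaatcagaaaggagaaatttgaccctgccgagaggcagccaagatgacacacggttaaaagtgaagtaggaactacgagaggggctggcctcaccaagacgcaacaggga
None of these 4 windows, nor of the 31 windows of 27 listed genes that the table held (250 bases before to 50 after the start), contained CACGTG, which reads the same on both strands, while 7.15% of 32851 windows of all genes did. The variant AACGTG, searched on both strands, was in 1 of the 31, that of Serpinf1, and in 4.68% of all windows. TATAAA on either strand was in 9 of 31 (29.0%), Lrrc17, Thbs2 and Tnc among them, against 13.6% of all. The AP-1 motif TGANTCA on either strand was in 2 of 31, those of Mmp3 and Tnxb, and in 7.81% of all. The median GC content was 53.3% in the 31 windows and 52.7% in all. A match or its absence describes these letters only.

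Further genes of the same pathways were read from a list of 83 by function, also drawn up with earlier results known, of which 76 had a probe set and 63 were bright enough to test. By limma 0 of the 63 passed, with 16 (25.4%) at an unadjusted p of 0.05, beside 15.3% of all probe sets, 14 lower (10.6% of all) and 2 higher (4.75%), and 5 without overlap (4.01% of all). The median difference was -0.069, beside -0.028 for all probe sets. Smoc1, the paralogue of Smoc2, had 9.26, 9.51, 9.38, 9.61 and 9.53 in wild type and 8.80, 9.09, 9.23, 9.10 and 9.05 in the mutant (-0.40 ± 0.09, SE, adjusted p = 0.114). Ccn5, a growth-restraining matricellular protein of smooth muscle, had 8.47, 8.52, 8.66, 8.97 and 8.84 against 7.64, 7.81, 8.41, 8.46 and 8.15 (-0.60 ± 0.17, adjusted p = 0.156). For both genes every mutant array lay below every wild-type array.

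Itga7, the laminin-binding integrin subunit of muscle, had -0.33 ± 0.09 (SE, limma adjusted p = 0.144) and Mfap5, a microfibril protein of adventitial fibroblasts, -0.24 ± 0.07 (adjusted p = 0.174), also without overlap. Of 17 tested matrix receptors 14 (82.4%) had a lower mean in the mutant, beside 57.6% of all probe sets. At an unadjusted limma p of 0.05 there were 5 (29.4%), all lower, beside 10.6% of all probe sets. Of 21 further fibroblast markers 13 (61.9%) were lower and 8 higher by their means, with a median difference of -0.035. At an unadjusted limma p of 0.05 there were 3 (14.3%), near the 15.3% of all probe sets.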

How the data were processed

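The authors deposited log2 expression values, 1 per probe set and array, with probes summarised and arrays made comparable beforehand. Per the submitters' processing notes the tools were GCRMA and MAS5, in unstated roles and versions, and the log2 scale was read from the values, between 1.10 and 14.74. The values were used as deposited. Of 45037 probe sets other than controls, 22340 were tested, namely those above the median of the array on 5 or more of the 10 arrays. The contrast, mutant minus wild type, was fitted with limma 3.58.1 (lmFit, eBayes) under R 4.3.3. Tests were two-sided, p values were adjusted by Benjamini-Hochberg across the tested probe sets, and the threshold was 0.05. The code was tested on simulated data. Members and gene lists were chosen with earlier results of these data known. Symbols come from the platform's annotation, and 34945 probe sets had a single gene. Every array's value is given for members past the threshold, with no overlap, or with an unadjusted p under 0.05. In the second list the genes named are those with the smallest unadjusted limma p, and array values are given for Smoc1 and Ccn5. No dim member needed a separate permutation test. Marker lists covered brown fat, adipocyte, skeletal and smooth muscle, endothelial, macrophage, Schwann, mesothelial and cartilage cells. Alternatives changed the filter, normalisation, variance model, test, threshold, probe sets, covariates and arrays.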

Additional observations from a re-analysis of the deposited data

Results flagged for a closer look

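In 80 groups of 5 arrays (40 genes in each genotype), 8 had an array far from the other 4 by Dixon's gap-to-range ratio, whose critical value is 0.71 and which chance exceeds in about 1 of 20 groups. On wild type F14_2 the lowest log2 levels were those of Cd34 (8.72, the next array at 9.08), Timp1 (4.80, next 5.31), Mmp2 (8.07, next 8.50) and Mmp14 (4.80, next 5.06). On mutant F12 they were those of Pdgfra (8.68, next 8.92), Dcn (12.30, next 12.54) and Smoc2 (8.38, next 8.70). The remaining one was a high value of Bgn on wild type F11 (13.21, next 13.04).

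Over the other marker lists, the means on F14_2 and F12 were 10.71 and 10.89 for adipocytes, 6.99 and 7.34 for macrophages, 5.68 and 5.69 for Schwann cells, 3.37 and 3.34 for mesothelium and 3.74 and 3.66 for cartilage. Smooth muscle means were 11.02 and 10.98, and endothelial means 6.04 and 6.05. The macrophage mean of F14_2 and the cartilage mean of F12 were the lowest of the 10 arrays. F12 also had the highest skeletal muscle mean of the 10 arrays (11). That mean was 6.30 on F14_2, 9.90 on wild type F16 and 3.90 on mutant F13. The part of these cells and tissues in the low values was not tested.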

How the results depend on the processing

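The count of 1 gene past the threshold among the 40 was 0 without a filter on dim probe sets, with the mean of all probe sets of a gene, with the ordinary one-way analysis, with the brown fat covariate, with the skeletal muscle covariate and without both F14_2 and F12, and between 0 and 1 when an array was left out. The count over all probe sets, 48, was 141 with the 75th percentile filter, 17 with no filter, 13 with the ordinary analysis, 0 and 7 with the brown fat and skeletal muscle covariates, 2 without both F14_2 and F12, 191 at a threshold of 0.10 and between 9 and 43 when an array was left out. Fits with fewer arrays have less power, and what caused these counts to change was not tested. The brown fat covariate turned the median difference of the 40 genes to 0.20, that of Fn1 to 0.11, of Cilp to -0.027 and of Pcolce2 to 0.0075. In the other 19 of its 20 alternatives the median stayed below 0, between -0.090 and -0.0092 with an array left out. The count of 0 among 63 further genes was 0 in all 24 alternatives. Of the 14 genes given array by array, the 10 not named here as turned or lost kept their sign and stayed short of the threshold in each alternative in which they were tested. Thy1 and Cilp did not pass the 75th percentile filter and have 23 alternatives in place of 24. No paired analysis was possible because the groups share no replicate identifier.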
